A study of Mus musculus with 30 samples.

Results

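Motile cilium genes encode the parts and the transcription factors of beating cilia, and 41 of them were followed by gene symbol in the ovaries of mice that had or had not been given dextran sulfate sodium (DSS) before puberty. The list was given by name, each member was found once in a table of 50600 genes, and 28 members passed a filter of a mean of at least 5 normalized counts over the mice. The mice were C57BL/6 females. The DSS group was 7 mice that received 3% DSS, a polymer that injures the lining of the colon, in drinking water for 7 days while sexually immature. The control group was 8 littermates. The left and the right ovary of each mouse were taken after sexual maturity, which gave 14 DSS and 16 control ovaries, and the ages were not stated in the labels. Libraries were made by CEL-Seq, which counts the 3′ ends of polyadenylated transcripts, and values are read counts divided by a size factor per library. The mouse was the unit that was treated, so groups were compared over mice, each as the mean of its ovaries.

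Motile cilia stand in tufts on multiciliated cells, which in the female reproductive tract line the oviduct and help to move the egg. Each cilium holds an axoneme of microtubule doublets around a central pair. Dynein arms make the doublets slide, and radial spokes, the central pair and the nexin links control the beat. Ovgp1 encodes oviductin, a glycoprotein secreted by the non-ciliated cells of the oviduct, and Foxj1 is the forkhead transcription factor that switches on the genes of motile cilia.

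The libraries held 3095386 to 8564770 reads, with a median of 4305814. Defining transcripts of the ovary were present in all 30 libraries, with at least 5021.52 normalized counts of Inha (an inhibin subunit), at least 63.97 of Foxl2 (a granulosa cell factor) and at least 116.21 of Gdf9 (an oocyte growth factor). Ovaries are named by group, the mouse number in the labels and side. The library of DSS_11.2 left stood apart. It was lowest in 8 of the 10 defining ovary genes, among them Lhcgr, a luteinizing hormone receptor (141.8 against a median of 2037.05 over all ovaries), and the 10 genes summed to 9836.21 there, against 23587.5 to 37547.6 in the other ovaries. It also had the highest Ovgp1. Cyp17a1, an enzyme of androgen synthesis, had 33.15 to 4533.32 over the libraries. Ovgp1 ranged from 110.15 to 66716. It was under 1000 in 20 ovaries, from 1000 to 5000 in 3 and over 5000 in 7, with no gap between the classes on a log scale: the highest value under 1000 was 973.05 and the lowest above was 1629.73. The ovaries over 5000 were 3 of 7 DSS left, 1 of 7 DSS right, 0 of 8 control left and 3 of 8 control right ovaries.

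**Figure D1:**
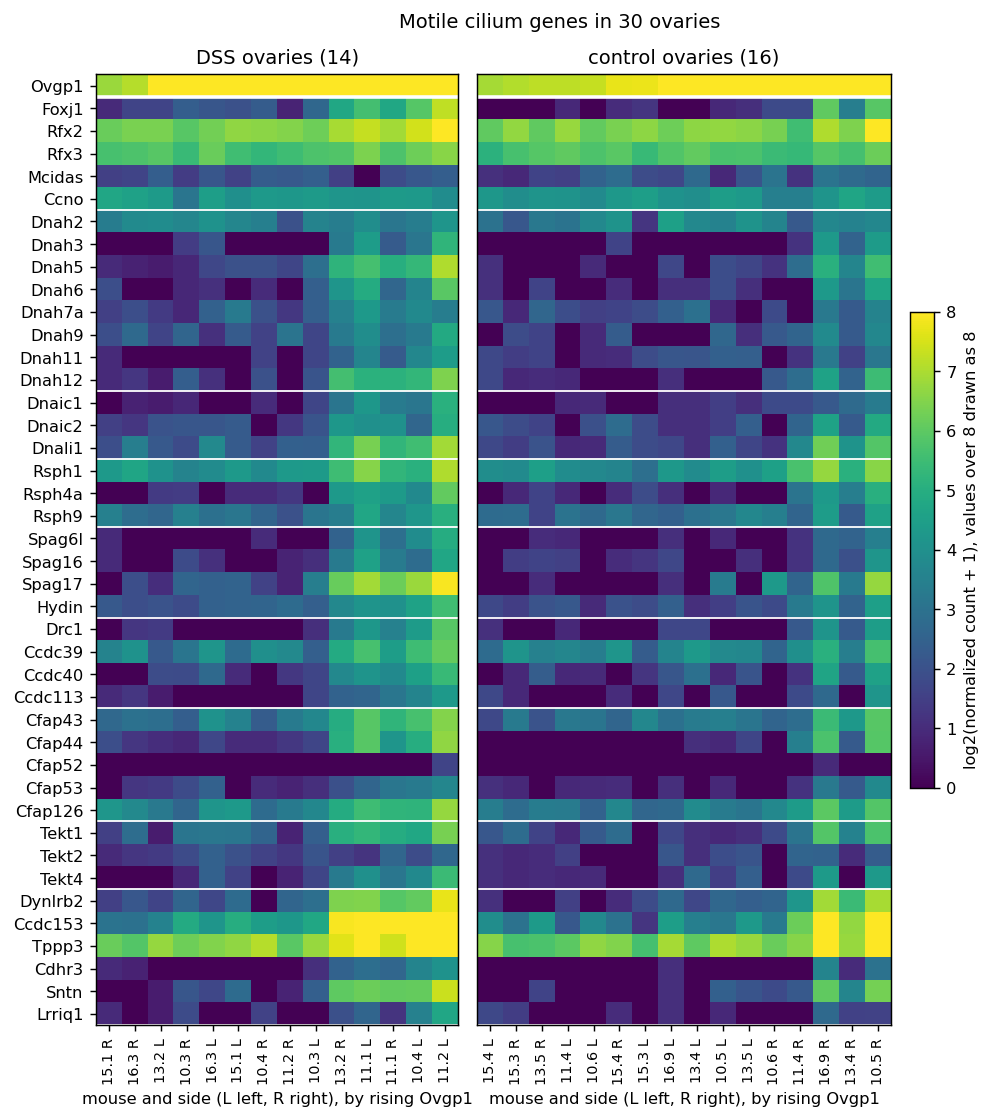
Heat map of Ovgp1 and the 41 members (rows, grouped by role) in the 14 DSS ovaries and the 16 control ovaries (columns, in each panel by rising Ovgp1); colour is log2(normalized count + 1), and values over 8 are drawn as 8. Most members are bright in the ovaries at the right end of each panel, and Ccno and Dnah2 do not brighten there.

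Most members were high in the ovaries rich in Ovgp1 and close to 0 in the others. Foxj1 had a lowest, median and highest value of 0, 0.965 and 4.22 normalized counts in the 20 ovaries with Ovgp1 under 1000, and of 9.61, 58.2 and 149 in the 7 ovaries over 5000. The ranges did not overlap, and Foxj1 had no read in 6 of the 20. Foxj1 had 5.43, 2.48 and 26.5 normalized counts in the 3 ovaries between these limits, DSS_10.3 left, control_11.4 right and DSS_13.2 right. Fewer ciliated cells and less RNA per ciliated cell cannot be told apart in RNA from whole ovaries.

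The median in the ovaries under 1000 was below 0.1 of the median in the ovaries over 5000 for 22 of 40 members, from 0.1 to 0.5 for 13 and at least 0.5 for 5. The ratio had a median of 0.0651 over the members, and Cfap52 has none because its median was 0 in both classes. Among the 28 members past the filter, 15 had a ratio below 0.1, against 0.847% of the 14640 genes past the filter with a ratio, whose median ratio was 1. In 19 members, 15 of them past the filter, every ovary over 5000 was above every ovary under 1000, which held for 1.04% of genes past the filter. Without mouse DSS_11.2, left out after seeing the data, these counts were 21 members with a ratio below 0.1 and 19 with ranges apart. Ovaries were sorted here by a measured gene, so these values are a description without a test. Some members, such as Foxj1 and Drc1, had at most 4.22 and 2.26 normalized counts in any ovary under 1000. Such members reached the filter mean of 5 through the other ovaries, so both counts of 15 members past the filter are partly fixed by it.

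By the limit used here, a median of at least 5 normalized counts in the ovaries under 1000, 11 members kept a level and 30 did not. The 11 were Rfx2 (median 83.3), Tppp3 (81.0), Rfx3 (51.8), Ccno (17.7), Rsph1 (14.7), Ccdc39 (11.6), Dnah2 (11.5), Ccdc153 (11.435), Cfap126 (9.07), Cfap43 (7.28) and Rsph9 (6.50). 7 members had a median of 0 there, Dnah3, Spag6l, Drc1, Ccdc113, Cfap52, Cdhr3 and Lrriq1. Keeping a level was not the same as keeping a steady one. Ccdc153, a coiled-coil gene used as a marker of ciliated cells, had a median of 11.435 in the ovaries under 1000 and 363 in those over 5000, with ranges that did not overlap.

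**Figure D2:**
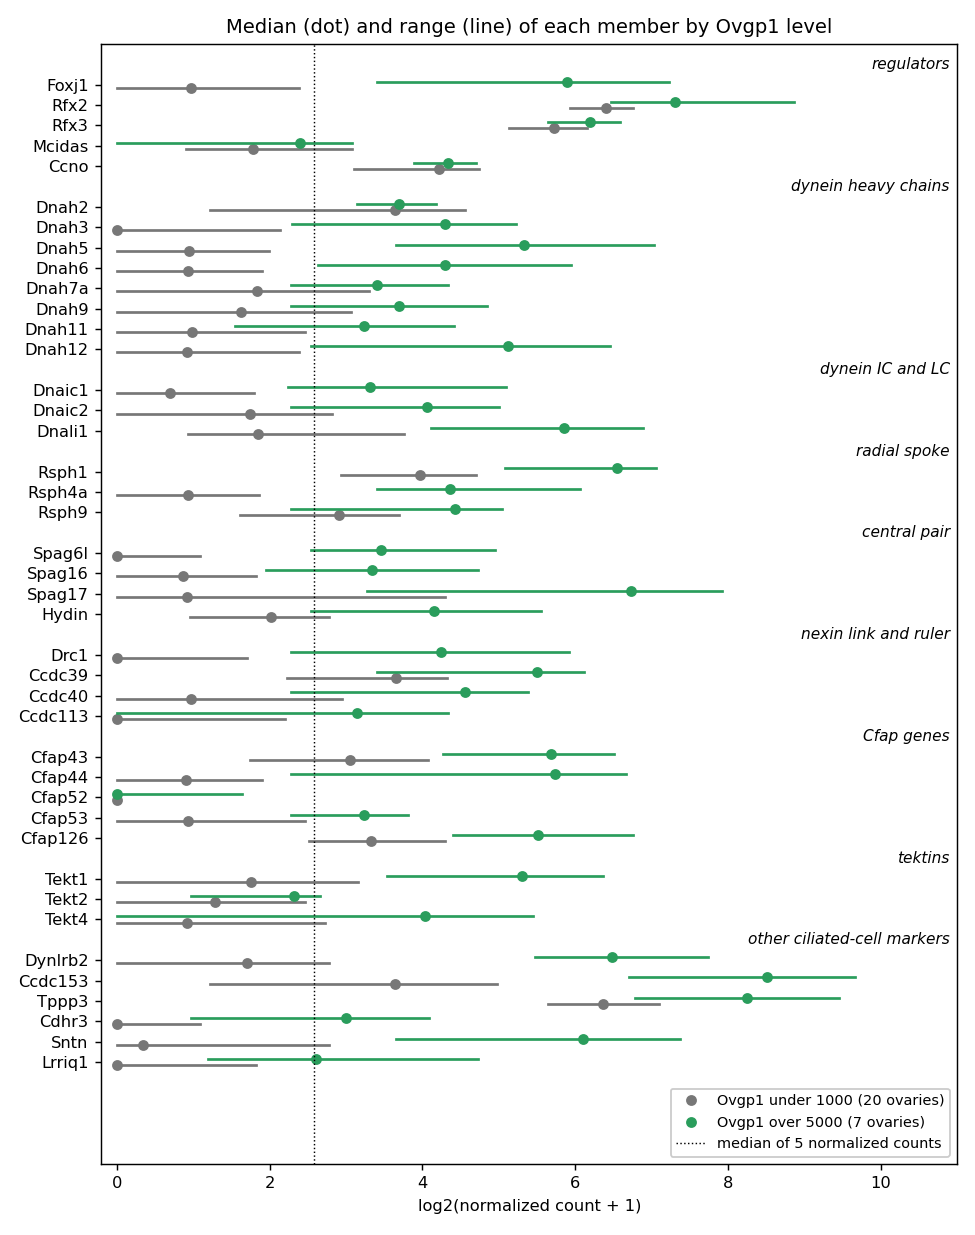
Median (dot) and lowest to highest value (line) of each member, as log2(normalized count + 1), in the 20 ovaries with Ovgp1 under 1000 (grey) and the 7 ovaries over 5000 (green); the dotted line is a normalized count of 5. The grey and green lines are apart in 19 members, and the dots nearly coincide in Ccno and Dnah2.

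Sntn encodes sentan, a protein of the tip of the cilium, and Dynlrb2 a roadblock light chain of dynein, and both had low ratios. Sntn had 0, 0.265 and 5.88 normalized counts (lowest, median, highest) in the ovaries under 1000 and 11.5, 67.7 and 164 in those over 5000. Dynlrb2 had 0, 2.26 and 5.88 in the ovaries under 1000 and 43.3, 88.2 and 213 in those over 5000. Ccno, a cyclin-family gene needed to multiply centrioles in cells that become multiciliated, had 7.60, 17.7 and 25.7 in the ovaries under 1000 and 13.9, 19.1 and 25 in those over 5000. Sntn and Dynlrb2 thus separated the classes of ovaries, and the values of Ccno overlapped throughout.

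The sequences upstream of these 3 genes are shown because factors of the RFX and forkhead families act on promoters of ciliary genes, and because the 3 genes differ in how they vary over the ovaries. They were chosen after the values were seen. They are from RefSeq, build GRCm38.p6, plus strand, and start 250 bases before the transcript start, at chr8:116504765-116504973 for Dynlrb2, chr14:13670626-13670875 for Sntn and chr13:112987552-112987801 for Ccno. The stretches of Sntn and Ccno are 250 bases long, and that of Dynlrb2 is 209 and stops short of its transcript start. Capitals mark GTTGCC, the core of an RFX site, and TGTTTAC, a forkhead core, which is read as GTAAACA on the other strand.
Dynlrb2: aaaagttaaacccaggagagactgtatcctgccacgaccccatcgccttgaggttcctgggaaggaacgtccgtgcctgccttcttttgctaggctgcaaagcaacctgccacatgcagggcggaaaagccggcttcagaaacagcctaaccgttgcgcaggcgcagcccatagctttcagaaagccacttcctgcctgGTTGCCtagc
Sntn: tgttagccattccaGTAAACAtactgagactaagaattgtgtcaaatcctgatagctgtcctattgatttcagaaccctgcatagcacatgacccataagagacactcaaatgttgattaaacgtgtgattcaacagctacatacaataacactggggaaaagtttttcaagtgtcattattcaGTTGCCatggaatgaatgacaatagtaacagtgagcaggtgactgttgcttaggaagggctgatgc
Ccno: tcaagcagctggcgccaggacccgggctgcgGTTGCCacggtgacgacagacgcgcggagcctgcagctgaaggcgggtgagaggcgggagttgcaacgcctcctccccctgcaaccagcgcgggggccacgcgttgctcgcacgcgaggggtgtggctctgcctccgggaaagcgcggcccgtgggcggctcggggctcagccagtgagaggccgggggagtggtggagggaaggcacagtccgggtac
GTTGCC began 51 bases before the start of Dynlrb2, 66 before that of Sntn and 219 before that of Ccno. On either strand it was in 21 of 40 windows of 250 bases before to 50 after the start of 35 members, 52.5%, against 12.5% of 32851 windows of all genes. TGTTTAC was in 5% of the member windows and 3.65% of all windows, and TGTTTGT, another forkhead core, in 5% and 6.61%. Both forkhead cores open with the same letters, which are not in the RFX core, and a match is a description of the letters in a window.

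The regulators other than Foxj1 differed less between the classes of ovaries. Rfx2 and Rfx3 encode RFX transcription factors that act on ciliary genes, and Mcidas encodes a coregulator that starts the multiciliated programme. Rfx3 had 34.2, 51.8 and 70.4 normalized counts in the ovaries under 1000 and 49.0, 72.0 and 94.9 in those over 5000, a ratio of medians of 0.72. Rfx2 had a median of 83.3 in the ovaries under 1000 and 157 in those over 5000, a ratio of 0.53. Mcidas was low throughout, with 0.88 to 7.47 in the ovaries under 1000 and 0 to 7.47 in those over 5000. The ranges of all 4 genes, with Ccno, overlapped between the classes.

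The dynein heavy chains are the motors of the arms, Dnah5, Dnah9 and Dnah11 of the outer arm and Dnah2, Dnah3, Dnah6, Dnah7a and Dnah12 of the inner arms. Dnah5 had a median of 0.935 in the ovaries under 1000 and 39.1 in those over 5000, and Dnah12 0.895 and 33.9. Dnah3 had no read in 17 of the 20 ovaries under 1000 and 3.91 to 36.3 normalized counts in the 7 over 5000. Dnah2 stood apart from these, with a median of 11.5 in the ovaries under 1000 and 12.0 in those over 5000 and the highest ratio of all members, 0.957. Its exons overlap those of the antisense gene Dnah2os, whose reads cannot be told apart without the strand setting of the counting. For Dnah7a, 63.7% of the 30-base words in the last 500 bases of the transcript are shared with Dnah7c and 42.3% with Dnah7b, so its counts are uncertain.

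The other parts of the axoneme with a ratio were all lower in median in the ovaries under 1000. Their ratios ran from 0 to 0.359, that of Tekt2. Dnali1, an inner-arm dynein light intermediate chain, had a median of 2.59 in the ovaries under 1000 and 57.0 in those over 5000, while Dnaic1 and Dnaic2, outer-arm intermediate chains, had 0.615 and 2.35 in the ovaries under 1000 and 8.99 and 15.6 in those over 5000. Of the radial spoke head genes, Rsph4a had a ratio of 0.0463, Rsph1 0.16 and Rsph9 0.316. Of the central pair genes, Spag17 had a median of 0.885 in the ovaries under 1000 and 105 in those over 5000, and Hydin 3.06 and 16.8. The ranges of Spag17 overlapped. Of the ovaries over 5000, control_13.4 right had 8.65 and the other 6 at least 54.2, and of those under 1000, control_10.6 right had 18.7 and control_10.5 left 9.01.

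Drc1, a subunit of the nexin link, had no read in 14 of the 20 ovaries under 1000 and 3.85 to 59.7 normalized counts in those over 5000. Ccdc39 and Ccdc40 form the ruler along which arms and spokes are spaced. Their ratios were 0.262 and 0.0428, so the counts of these partners differed in how much remained in the ovaries under 1000. Exons of Ccdc39 overlap those of Ttc14 on the other strand, whose reads cannot be told apart without the strand setting. Cfap44 had a median of 0.87 in the ovaries under 1000 and 52.3 in those over 5000, and Cfap43, which works with it as a tether of an inner arm, 7.28 and 50.3. Tekt1, Tekt2 and Tekt4, tektins inside the doublets, had ratios of 0.0619, 0.359 and 0.0583. Cfap52, a protein inside the doublets, had reads in only DSS_11.2 left and control_16.9 right.

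Over all 30 ovaries, 23 of 40 members had a Pearson r of at least 0.8 with Foxj1 on log2(normalized count + 1) values, with a median of 0.855. Of the 27 members past the filter, 17 reached 0.8, and over all genes past the filter 1.23% did and the median r was -0.016. With Ovgp1, 23 of 41 members reached 0.8 (median 0.815). Of the 28 past the filter 18 did, against 1.24% of genes past the filter. Some members passed the filter only through the ovaries rich in Ovgp1, so the counts past it are partly fixed by the filter. The highest r with Foxj1 were those of Spag17 (0.934), Dnah5 (0.931), Cfap44 (0.93) and Sntn (0.926). The lowest were those of Ccno (0.067), Mcidas (0.14), Dnah2 (0.224) and Tekt2 (0.497). The ovaries of 1 mouse are not independent, and all points share the depth and scaling of their library, so these values are a description.

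**Figure D3:**
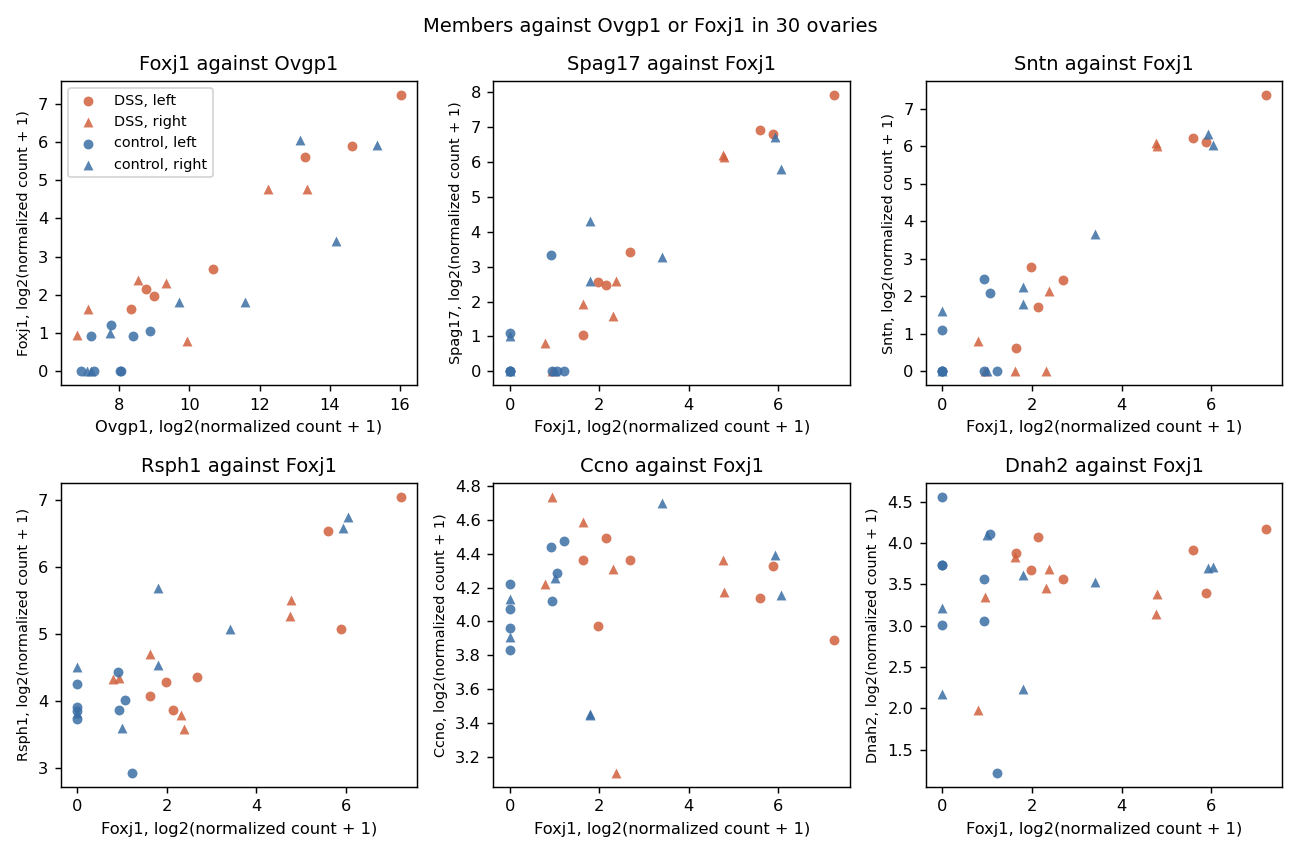
Foxj1 against Ovgp1, and 5 members against Foxj1, in 30 ovaries, each axis as log2(normalized count + 1); orange, DSS; blue, control; circles, left; triangles, right. Spag17, Sntn and Rsph1 are high in the ovaries where Foxj1 is high, and Ccno and Dnah2 are at the same height across the Foxj1 axis.

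The relation was tested in the 15 left and the 15 right ovaries separately, each side with 1 ovary per mouse. In all, 324 relations were computed, r and Spearman's rho of each member with Foxj1 and with Ovgp1 on each side, each with a two-sided test of 100000 permutations, and p was adjusted over all of them by Benjamini-Hochberg. With Foxj1, 23 of 40 members passed an adjusted p of 0.05 with both coefficients on both sides, 13 with some and 4 with none. The 4 were Mcidas, Ccno, Dnah2 and Cfap52. Cfap52 had reads in 1 ovary on each side, so its permutation tests could not pass, and nothing is read from its r of 0.612 in left and 0.485 in right ovaries. Spag17 had an r of 0.943 in left ovaries (adjusted permutation p = 0.000231) and 0.921 in right ovaries (adjusted permutation p = 0.000202), with rho of 0.781 and 0.888. Ccno had an r of -0.037 in left ovaries (adjusted permutation p = 0.9) and 0.15 in right ovaries (adjusted permutation p = 0.62). With Ovgp1, 22 of 41 members passed all 4 tests and 4 passed none, Cfap52 among them. The permutation tests were run on the members alone, so no share over all genes stands beside these counts.

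The high values of r rested on the ovaries rich in both anchors. Without the 2 ovaries farthest from the median of Foxj1, the members with an r of at least 0.8 numbered 10 of 40 in left and 14 of 40 in right ovaries, against 30 and 23 with all 15. Without mouse DSS_11.2 they numbered 17 in left and 24 in right ovaries. Spag17 still had an r of 0.877 in left and 0.895 in right ovaries without the 2 ovaries farthest from the median of Foxj1. Among ovaries with Ovgp1 up to 5000, 0 members reached 0.8 in the 12 left and 5 in the 11 right ovaries, and the median r was 0.195 in left and 0.599 in right ovaries. Among ovaries under 1000, a limit added after seeing the data, 0 members reached 0.8 with Foxj1 in the 11 left or the 9 right ovaries. Foxj1 had at most 5 reads in each of these libraries, so a low r there cannot show that a relation is absent.

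Foxj1 and Ovgp1 did not keep a fixed ratio among the rich ovaries. DSS_11.1 left had 4.75 Foxj1 reads per 1000 Ovgp1 reads (95% exact Poisson interval of the Foxj1 reads 3.35 to 6.55), and DSS_11.2 left had 2.24 (1.88 to 2.64) with the highest Ovgp1, 66716. Among control ovaries the ratio was 7.13 (5.56 to 9.01) in control_16.9 right and 0.516 (0.248 to 0.949) in control_13.4 right, which had an Ovgp1 of 18628. The intervals cover counting error only. Of the 41 members, DSS_11.2 left was alone at the highest value among the 7 ovaries over 5000 in 37, and control_13.4 right alone at the lowest in 33.

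The comparison of DSS with control mice asks whether a bout of colitis before puberty left a difference in the adult ovary. None of the 28 members past the filter passed an adjusted p of 0.05 with limma, edgeR or DESeq2, and of all 14646 genes 0% did in limma, 0.041% in edgeR and 0.355% in DESeq2. At an unadjusted p of 0.05, limma passed 2 members, Dnah9 and Spag17, against 7.98% of all genes tested. By that limit edgeR passed 0 members and 8.27% of all genes, and DESeq2 1 member and 7.61% of all genes. Without the filter, 40 of the 41 members had a higher mean log2 value in DSS mice, with Mcidas the exception (log2 difference -0.23), and the median log2 difference was 0.81, against a median of 0.02 and a share of 55.18% higher over all genes. Without mouse DSS_11.2, 38 members were higher and the median was 0.49. The members were measured in the same libraries and rise and fall together over them, so the 41 differences are not independent measurements.

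Foxj1 had 1.93, 14.3 and 75.0 normalized counts (lowest, median and highest mouse) in DSS mice and 0.505, 1.47 and 32.7 in control mice. The groups overlapped, and the means were 23.8 ± 26.5 (SD, n = 7) in DSS mice and 9.07 ± 13.96 (SD, n = 8) in control mice, a log2 difference of 1.63 (SE 0.83, limma adjusted p = 0.648). Rfx3 had 47.7, 58.0 and 69.9 in DSS mice and 45.5, 53.9 and 61.7 in control mice (log2 difference 0.13, limma adjusted p = 0.751). Ccno had 13.6, 18.3 and 22.3 in DSS mice and 11.6, 17.6 and 20.4 in control mice, and Mcidas 1.31, 3.02 and 3.97 in DSS mice and 1.54, 3.28 and 6.10 in control mice. The spread between mice was wide for Foxj1 and narrow for Rfx3 and Ccno.

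Among the dynein chains, Dnah9 had 3.34, 5.32 and 17.5 normalized counts in DSS mice and 1.32, 2.18 and 8.70 in control mice, and 7 of 7 DSS mice were above the control median. Its log2 difference was 0.85 (SE 0.38, 95% interval 0.05 to 1.65, limma adjusted p = 0.596). Dnah5 had 1.49, 18.2 and 66.1 in DSS mice and 0, 2.10 and 24.3 in control mice (log2 difference 1.55, SE 0.80, limma adjusted p = 0.648). Dnali1 and Dnaic2 had log2 differences of 1.21 (SE 0.70) and 0.38 (SE 0.48). All 11 heavy, intermediate and light intermediate chains of the list were higher in mean in DSS mice, from 0.11 for Dnah11 to 1.55 for Dnah5, and none passed.

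Spag17, the central pair gene, had 2.45, 35.1 and 121 normalized counts in DSS mice and 0, 3.40 and 57.0 in control mice, and 6 of 7 DSS mice were above the control median. Its log2 difference was the widest of the members, 2.16 (SE 0.96, 95% interval 0.13 to 4.19, limma adjusted p = 0.6), and its exons overlap Spag17os and Wdr3 on the other strand. Hydin, also of the central pair, had a log2 difference of 0.85 (SE 0.44), Rsph9 0.38 (SE 0.26) and Rsph4a 0.56 (SE 0.78). Cfap44 and Cfap43 had 1.47 (SE 0.88) and 0.83 (SE 0.47), Drc1 and Ccdc40 0.91 (SE 0.77) and 0.88 (SE 0.65), and Tekt1 and Tekt4 1.0103 (SE 0.55) and 0.75 (SE 0.58). Sntn had 1.14, 32.0 and 82.5 in DSS mice and 0, 2.26 and 41.7 in control mice (log2 difference 1.78, SE 0.94, limma adjusted p = 0.65). Tppp3, a protein that promotes tubulin polymerization, had 72.6, 152 and 379 in DSS mice and 49.5, 85.9 and 222 in control mice (log2 difference 0.57, SE 0.36). In each of these genes the DSS and control mice overlapped.

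**Figure D4:**
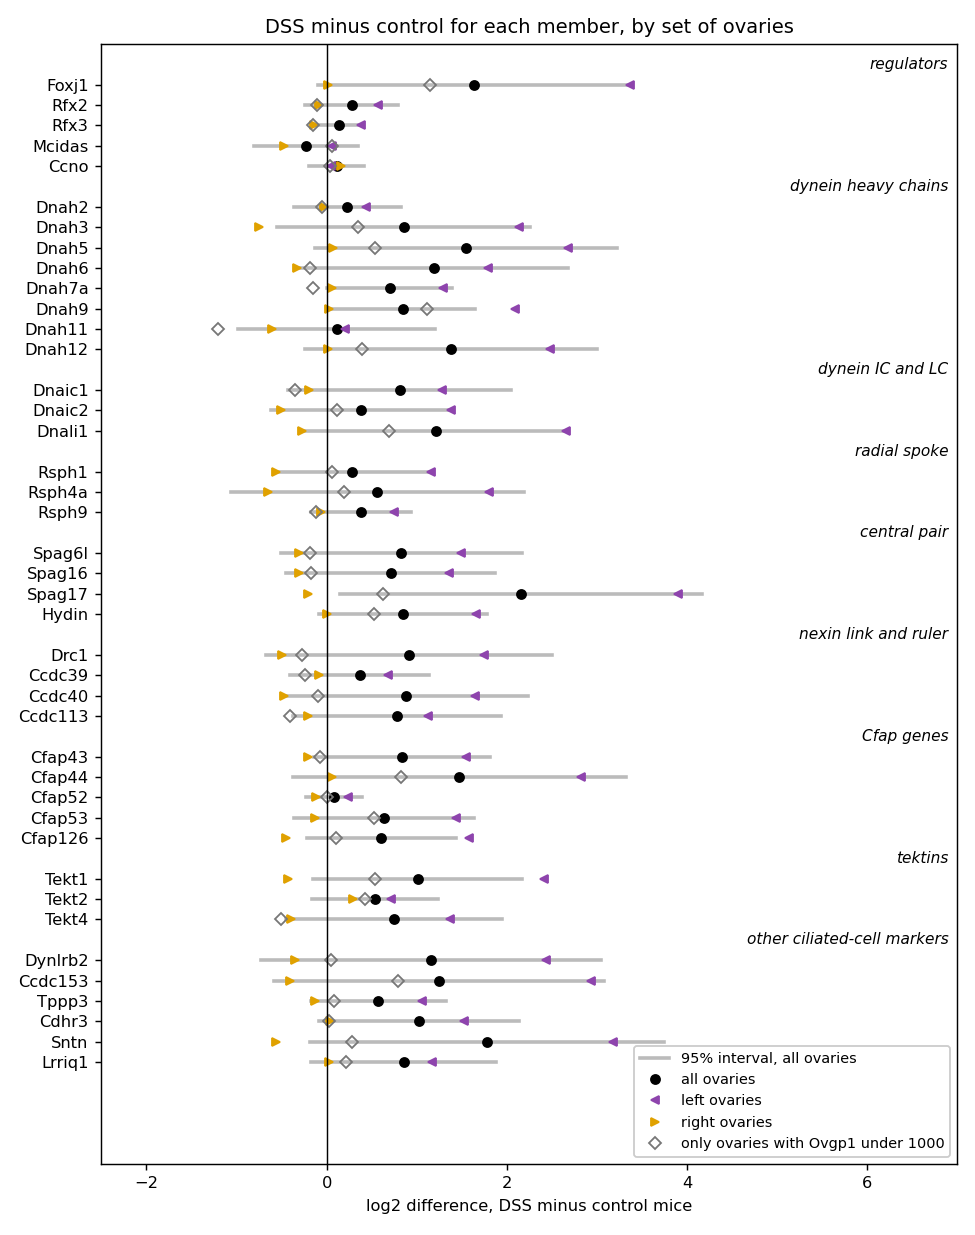
Log2 difference of DSS minus control mice for each member, over all ovaries (black dot, with its 95% interval from limma without a filter in grey), left ovaries, right ovaries, and ovaries with Ovgp1 under 1000. In left ovaries all 41 values are above 0, in right ovaries 11 are, and in ovaries under 1000 the points lie around 0.

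The direction differed between sides. In left ovaries alone, 28 of 28 tested members were higher in DSS mice, against 50.26% of all genes, with a median log2 difference of 1.65. None passed an adjusted p of 0.05 (limma, 0.0746% of all genes), and 23 passed an unadjusted one, against 9.8% of all genes. Many tested members reached the filter mean of 5 only through the DSS left ovaries, so the counts are partly fixed by the filter. The means in DSS and control left ovaries were 38.4 and 0.529 for Foxj1, and 28.2 and 0.525 for Cfap44. Others, such as Tppp3 (242 and 90.8), were past 5 in both. Without mouse DSS_11.2, 22 of 22 tested members were higher in left ovaries (median 1.27), none passed an adjusted p (limma, 0.0617% of all genes) and 16 an unadjusted one (7.65% of all genes). In right ovaries alone, 7 of 26 tested members were higher, against 49.32% of all genes, with a median of -0.18. None of the 26 passed an adjusted p (limma, 0.00689% of all genes) or an unadjusted one (6.91% of all genes). The difference of the DSS effect between left and right was itself tested. It passed in none of the 28 members (limma, 0% of all genes), and 14 members had an unadjusted p under 0.05, against 7.5% of all genes. Some of the 28 reached the filter mean through DSS left and control right ovaries. Drc1 had means of 14.3 and 5.67 there, and of 0.824 in control left and 2.91 in DSS right ovaries. The count of 14 is thus also partly fixed by the filter.

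The 3 members with the smallest p had a left minus right difference that was larger in DSS than in control mice, by 1.73 for Rsph1 (SE 0.57), 2.04 for Cfap126 (SE 0.67) and 4.11 for Spag17 (SE 1.42), each on the log2 scale with a limma adjusted p of 0.637. Ovgp1, the oviduct transcript, had 4.85 (SE 1.57, limma adjusted p = 0.637). Without the mice that had an ovary over 5000, 16 of the 41 members had a positive difference, against 40 with all mice. Between left and right ovaries over all mice, no member passed (limma, against 7.27% of all genes at an adjusted p and 22.9% at an unadjusted one), and 0 members had an unadjusted p under 0.05.

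Foxj1 was the 1 member whose left ovaries did not overlap between the groups. It had 2.11, 5.43 and 149 normalized counts (lowest, median, highest) in the 7 DSS left ovaries and 0, 0.45 and 1.33 in the 8 control left ovaries, and 0.13% of genes past the filter had every DSS left ovary above every control left ovary. Foxj1 had only 5, 4, 3 and 3 reads in DSS_10.3, DSS_13.2, DSS_15.1 and DSS_16.3 left, and at most 1 read in a control left ovary. The gap between the groups was thus a few reads. In right ovaries it had 0.74, 3.97 and 26.5 in DSS mice and 0, 2.49 and 65.4 in control mice, which overlapped. The left ovary difference was 3.36 on the log2 scale (SE 0.74, limma adjusted p = 0.196), and 2.80 (SE 0.651, limma adjusted p = 0.243) without mouse DSS_11.2.

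**Figure D5:**
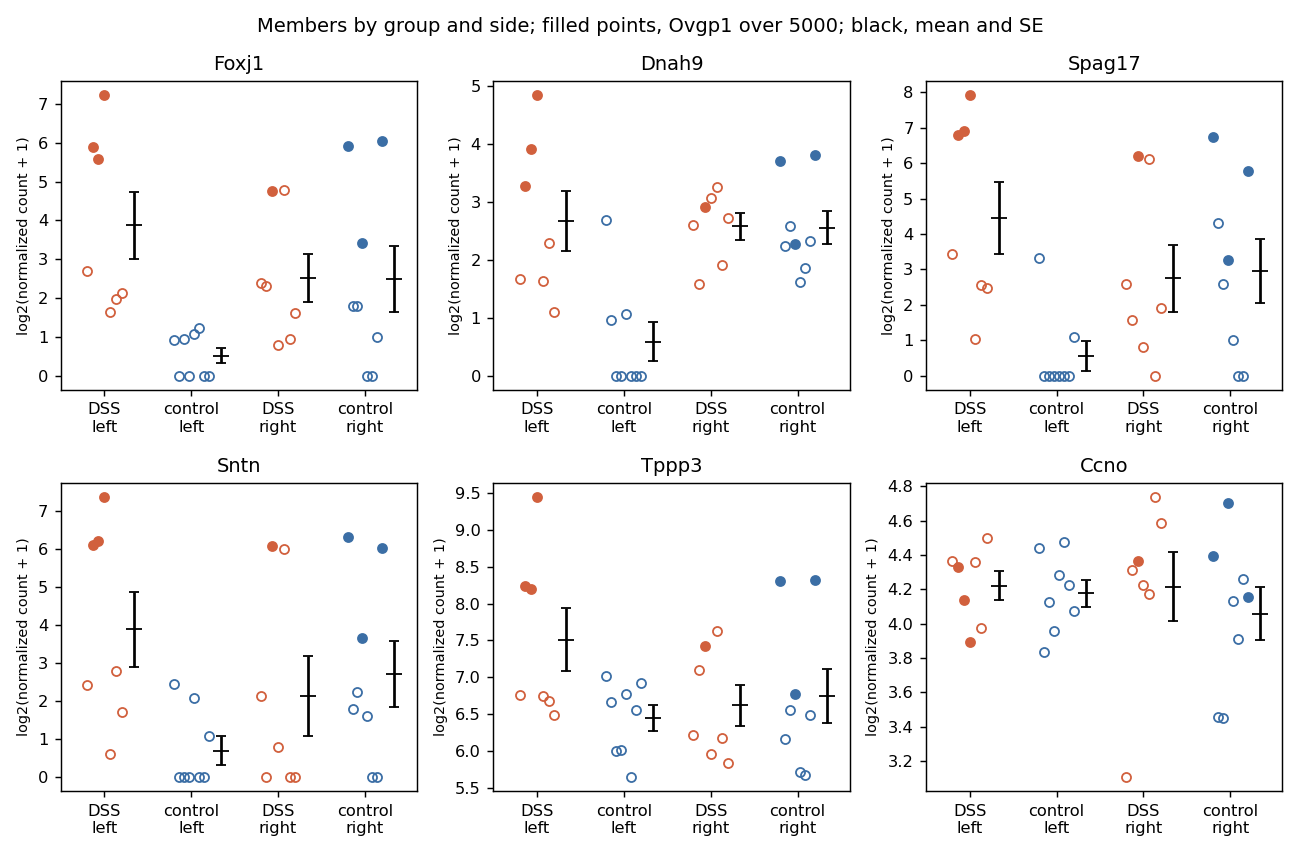
Foxj1, Dnah9, Spag17, Sntn, Tppp3 and Ccno in each ovary by group and side, as log2(normalized count + 1); filled points are ovaries with Ovgp1 over 5000, and black marks are the mean and its SE. Filled points are in the DSS left, DSS right and control right columns and none in the control left column, and Foxj1 in control left ovaries is below every DSS left ovary.

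The differences between groups moved with the ovaries rich in Ovgp1. Without the 7 ovaries over 5000, 32 of 41 members were higher in DSS mice, with a median log2 difference of 0.27. In only the 20 ovaries under 1000, from 6 DSS and 8 control mice, 24 of 41 were higher and the median was 0.06, in a comparison added after seeing the data. Over all genes tested there, 53.04% were higher and the median was 0.02. None of 40 members with reads passed an adjusted p there (limma, 0.0213% of all genes), and 5 passed an unadjusted one, against 8.75% of all genes. Those ovaries were 3 left and 5 right in DSS mice and 8 left and 4 right in control mice.

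The 5 were Foxj1, Cfap44, Dnah9, Ccdc153 and Dnah11. They are 12.5% of the 40, near the 8.75% of all genes, so their values are given as a description. In these ovaries Foxj1, Cfap44 and Dnah11 had a few reads, Dnah9 up to 10 and Ccdc153 up to 34. Foxj1 had at least 1 read in 8 of 8 DSS and 6 of 12 control ovaries, with at most 5 reads in a DSS and 2 in a control library (log2 difference over mice 1.14, SE 0.28, limma adjusted p = 0.225). Cfap44 had reads in 8 of 8 DSS and 3 of 12 control ovaries (0.82, SE 0.24, limma adjusted p = 0.35). Dnah11 went the other way, with reads in 2 of 8 DSS and 10 of 12 control ovaries (-1.20, SE 0.38, limma adjusted p = 0.374), and its exons overlap those of Cdca7l. These DSS libraries held a median of 5149292 reads and the control libraries 4117994, and Ovgp1 was itself higher by 0.80 (SE 0.28). Their part in these counts was not tested.

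Other genes of cilia were set beside the members. Of 38 members with a median of at least 5 normalized counts in the ovaries over 5000, 30 had a ratio below 0.25. Of 54 other axonemal genes at that level, 32 did, among them Iqub (0.0174), Tmem212 (0.0184) and Cfap65 (0.0238). The genes named here for their ratio were picked after their values were seen. Of 12 other regulators of multiciliation, 3 did, Myb (0.0555), Ccdc78 (0.164) and Trp73 (0.186), a transcription factor that acts upstream of Foxj1, whereas Plk4, a kinase of centriole duplication in dividing cells, had 1.06. Of 10 factors that assemble dynein arms in the cytoplasm, 4 did, with 0.0338 for Dnaaf1 and 1.03 for Ruvbl2. Of 35 genes of intraflagellar transport and the BBSome, which primary cilia of most cells use too, 0 did, and the lowest was Traf3ip1 at 0.477.

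In DSS against control mice, none of these lists had a member that passed (limma). Of 44 other axonemal genes tested, 38 were higher in DSS mice and 4 had an unadjusted p under 0.05, with a median log2 difference of 0.45. Of all genes tested, 50.58% were higher and 7.98% had such a p. The 3 smallest p were those of Cfap36 (0.24, SE 0.08, limma adjusted p = 0.449), Mns1 (0.23, SE 0.08) and Spef2 (1.10, SE 0.45). Of 11 other multiciliation regulators tested, 6 were higher and 0 had such a p, and of 10 assembly factors 7 and 0, with Zmynd10 at 0.97 (SE 0.48). Of 36 primary cilium genes tested, 27 were higher and 2 had such a p, with a median of 0.04, and Kif3a, a motor of intraflagellar transport, was at 0.26 (SE 0.08, limma adjusted p = 0.459).

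Markers of other tissues were counted in the same way. Beside Ovgp1, which sorted the ovaries, 11 oviduct and epithelial genes were followed, and their summed level ran from 373 to 3741 over the DSS ovaries (median 487) and from 327.5 to 2069 over the control ovaries (median 496). It was 753 to 3741 in the ovaries over 5000 and 327.5 to 693 in those under 1000, which did not overlap. Among these genes Pax8, a factor of secretory oviduct cells, had a ratio of 0.127 and Krt7, a keratin also of the ovarian surface, 0.755. The summed level of 7 ovarian surface epithelium genes was 369 to 672 in DSS ovaries and 366 to 618 in control ovaries, and 0 of the 7 had a ratio below 0.25. Axonemal genes are also used in sperm. The spermatid genes Prm1, Prm2 and Tnp1 were at 0 to 5.96 in sum in DSS ovaries and 0 to 3.10 in control ovaries, and the germ cell genes Ddx4, Dazl and Sycp3, which oocytes use too, at 21.1 to 64.0 in DSS ovaries and 17.4 to 51.4 in control ovaries. In DSS against control mice, 9 of 10 oviduct and epithelial genes tested, Ovgp1 included, were higher (Pax8 0.92, SE 0.73), 4 of 7 surface epithelium genes, 4 of 10 defining ovary genes and 1 of 3 germ cell genes, and those with an unadjusted p under 0.05 were Lhx9 (-0.20, SE 0.09) and Aldh1a2 (-0.37, SE 0.17) of the surface epithelium. The part of oviduct in the differences between groups was not tested beyond the values without the rich ovaries.

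Counting limits concern some members. Of the 41, 26 overlap another annotated gene and 13 of those in exons, among them Dnah9, Dnali1, Hydin, Ccdc39 and Cfap43. Lrriq1, at chr10:103045731-103236322 of GRCm38 in GENCODE M21, spans a further transcript, RP23-167J19.2, which had 2383 to 7698 normalized counts in DSS ovaries and 1845 to 5066 in control ovaries, against at most 25.6 for Lrriq1.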

How the data were processed

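Ovaries were profiled by CEL-Seq with 3 primer barcodes per ovary, per the labels' protocols. TopHat, HTSeq and DESeq2 were used with build GRCm38.p5, per the submitters' processing notes; versions, the strand setting and the handling of molecular identifiers are not given in the sources used here. The authors deposited a signal per gene, counts divided by a size factor per library. Dividing by each library's step returned whole reads for 99.82% to 100% of values above 0 (tolerance 0.0051 normalized counts); in 3 libraries the step was within 1% of 1. Depth limits low genes.

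For DSS against control, log2(mean of a mouse's ovaries + 1) was tested two-sided by limma 3.58.1 (R 4.3.3) with a trend in the prior. The 14646 genes whose mean over the mice reached 5 entered, and p was adjusted by Benjamini-Hochberg against 0.05. This scale understates changes of low genes. Left against right, and the DSS effect by side, used the log2 difference of left minus right within each mouse. Correlations were permuted in Python 3.11.15. edgeR 4.0.16 (6 genes called) and DESeq2 1.42.0 (52 genes called) on recovered reads, TMM scaling, other pseudocounts, filters and Ovgp1 limits, a replicate block and leaving out mice were alternatives. The tests were also run on simulated data. For limma and edgeR, the simulated ovaries of a mouse were independent and all genes had the same spread. Nothing is read from those runs for genes as variable between mice as Foxj1.

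The members and lists were chosen with earlier results of these data known. Named with values were Foxj1, Ovgp1, the 2 members of each role with the smallest p, the 4 with the highest and the 4 with the lowest r with Foxj1 and ratio, and up to 3 genes of each other list.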

Additional observations from a re-analysis of the deposited data

Results flagged for a closer look

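84 groups of mice (each member and Ovgp1 in DSS and in control mice) were looked at for a mouse far from the others of its group on the log2 scale, which chance alone gives in about 1 in 20 groups, and 4 were found. Rfx2 was at 180.3 normalized counts in mouse control_10.5, and at 74.1 to 103 in the other control mice; its right ovary had Ovgp1 over 5000. Dnah2 was at 14.57 in mouse DSS_16.3 and at 9.74 to 11.6 in the other DSS mice. Cfap52 was at 1.065 in mouse DSS_11.2 and at 0 in the other DSS mice, and at 0.465 in mouse control_16.9 and at 0 in the other control mice, so each of these values rests on 1 ovary with reads.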

How the results depend on the processing

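No member passed an adjusted p of 0.05 for DSS against control, left against right or the DSS effect by side under any alternative run, including leaving out each mouse in turn. Leaving out 1 mouse gave 38 to 40 members higher in DSS mice, a median log2 difference of 0.49 (without mouse DSS_11.2) to 1.012, 11 to 24 members higher in left ovaries, and 40 to 41 with a larger left minus right difference in DSS mice. 11 members were higher in DSS mice in right ovaries alone (median -0.20) and 24 in ovaries under 1000; 16 had a positive difference by side without mice over 5000. Among members whose difference is given, the log2 difference in right ovaries alone was -0.14 for Rfx3, -0.60 for Dnah11, -0.27 for Dnali1, -0.50 for Dnaic2, -0.058 for Rsph9, -0.65 for Rsph4a, -0.21 for Spag17, -0.49 for Drc1, -0.47 for Ccdc40, -0.21 for Cfap43, -0.43 for Tekt1, -0.40 for Tekt4, -0.56 for Sntn and -0.13 for Tppp3. In ovaries under 1000 it was -0.15 for Rfx3, -1.20 for Dnah11, -0.12 for Rsph9, -0.27 for Drc1, -0.10 for Ccdc40, -0.075 for Cfap43 and -0.51 for Tekt4, and 0.063 for Mcidas; without ovaries over 5000 it was -0.088 for Rfx3, -0.82 for Dnah11, -0.056 for Rsph9, -0.060 for Drc1 and -0.094 for Tekt4, and 0.12 for Mcidas. The cause was not tested. Members with an r of at least 0.8 with Foxj1 numbered 10 (left) and 14 (right) without the 2 farthest ovaries, 0 and 5 up to 5000 Ovgp1, 0 and 0 under 1000, and 17 and 24 without mouse DSS_11.2, against 30 and 23; with Ovgp1 they numbered 15 (left) without the 2 farthest, 1 and 5 up to 5000, and 2 and 0 under 1000, against 31 and 18. The members that kept a level were the same 11 with limits of 500 and 2000, a mean of at least 5 and TMM scaling, and 8 of them with a median of at least 10. With the first number of the mouse labels as a replicate block, 0 members were called and Foxj1 had 1.19; 11 pairs of mice with the same number correlated between -0.462 and 0.452, 4 of them over 0.1, so the number was not taken as a pairing. Low values rest on a few reads.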

Other observations

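Some genes outside the list followed Foxj1 over the 30 ovaries as closely as its members did. The highest Pearson r on log2(normalized count + 1) values were those of Gm45396 (0.958), Cfap65 (0.944), Capsl (0.943), Aoc1 (0.941), Fam216b (0.938) and Cdhr4 (0.938), and the highest of a member was that of Spag17 (0.934). Cfap65 encodes a protein of cilia and flagella, and Aoc1 a diamine oxidase. Over the genes past the filter the median r was -0.016. The points share libraries and mice, so the values are a description.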
